A study of Mus musculus with 2 samples.

Results

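The genes of the mitochondrial ribosomal proteins were followed in long-read RNA sequencing of mouse gastrocnemius, the large calf muscle. They were taken by name, as every annotated gene called Mrpl or Mrps with a number, leaving out pseudogenes, and reads were summed per gene over all transcript models. The rule found 78 genes among 14675 annotated genes with reads, and all 78 had reads in both libraries. The 2 libraries, replicate 1 and replicate 2, came from 2 µg of total RNA each of male B6CASTF1/J mice aged 2 months, which are first-generation hybrids of C57BL/6J and CAST/EiJ. The labels call them biological replicates 1 and 2 and number the males differently, but give both the same donor identifier. Whether they came from separate animals is not settled by the labels, so the spread between them may be partly technical. No treatment, genotype or second tissue stands beside this single group, so the data describe levels and transcript forms, with no test between conditions.

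The mitochondrial ribosome sits in the mitochondrial matrix and makes the few proteins that mitochondrial DNA encodes, which are all parts of the respiratory chain and ATP synthase. Its ribosomal RNAs come from mitochondrial DNA, while each of its proteins is encoded in the nucleus, made in the cytosol and imported. Some of these proteins have bacterial counterparts, and others were added in the mitochondrial lineage, largely on the ribosome's surface. Muscle depends on this machinery because most of its ATP in sustained work comes from oxidative phosphorylation.

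The libraries held 1182747 reads in replicate 1 and 1480977 in replicate 2, of which 1107128 and 1402875 fell on annotated genes. Levels are CPM, the reads of a gene for every 1000000 reads on annotated genes. A long read was counted once whatever the length of its transcript, so CPM values were compared between genes without division by length. Single molecules were not tagged, and the part of length in capture was not tested. The floor of 3 reads was 2.71 CPM in replicate 1 and 2.14 CPM in replicate 2, and every mitoribosomal gene lay above it. Fast muscle fibre genes were abundant, and 5 of them, Acta1, Ckm, Myh4, Atp2a1 and Tnnt3, summed to 331355 reads in replicate 1 and 395944 in replicate 2. Of the markers of other cells, Adipoq, Plin1, Lep, Cd68 and Alb had 0 reads in both libraries, Ptprc had 0 and 2, and 4 fibroblast genes summed to 628 and 889 reads. In whole tissue, fewer cells of a type and less RNA per cell cannot be told apart. The libraries differed in RNA of slow fibre genes. Myh7, Tnnt1, Tnni1, Myl2 and Atp2a2 summed to 1779 reads (1607 CPM) in replicate 1 and 8291 reads (5910 CPM) in replicate 2.

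Together the mitoribosomal genes took 5748 reads in replicate 1 and 7767 in replicate 2, or 5364 ± 244 CPM (SD, n = 2). Their median level was 52.4 CPM in replicate 1 and 54.9 CPM in replicate 2, a mean of 53.6 ± 1.77 CPM, against 5.42 and 6.42 CPM over all annotated genes with reads. The 80 cytosolic ribosomal protein genes had medians of 125 and 118 CPM and the 88 nuclear genes of oxidative phosphorylation 466 and 524 CPM. The 23 genes of the mitochondrial import machinery had medians of 47.0 and 58.5 CPM, close to those of the mitoribosomal genes. In CPM, a typical mitoribosomal mRNA was thus above the typical detected gene and below its cytosolic counterpart. It was well below a typical nuclear mRNA of oxidative phosphorylation. Median transcript lengths were 1284 nt for the mitoribosomal genes, 795 nt for the cytosolic ribosomal proteins and 732 nt for oxidative phosphorylation. The part of length in these levels was not tested.

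The mitoribosomal genes were also close to one another in level. The 90th percentile of their mean CPM was 4.71 times the 10th, against 13.6 times for the cytosolic ribosomal protein genes and 8.67 times for the oxidative phosphorylation genes. Those 2 lists were also taken by name and hold genes with very few reads, such as Rpl17 (2.33 CPM) and Cox6b2 (0.45 CPM). The part of list make-up in these spreads was not tested. From the highest to the lowest mitoribosomal gene the levels spanned 25.9-fold. When the 78 genes were put in order of level, 71 of the 77 neighbouring pairs lay closer together than the larger of their SDs, so the order within the middle of the group is not resolved by 2 libraries. The rank correlation of their CPM between the libraries was 0.920 over 78 genes, and 0.907 over all genes with at least 50 summed reads.

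**Figure D1:**
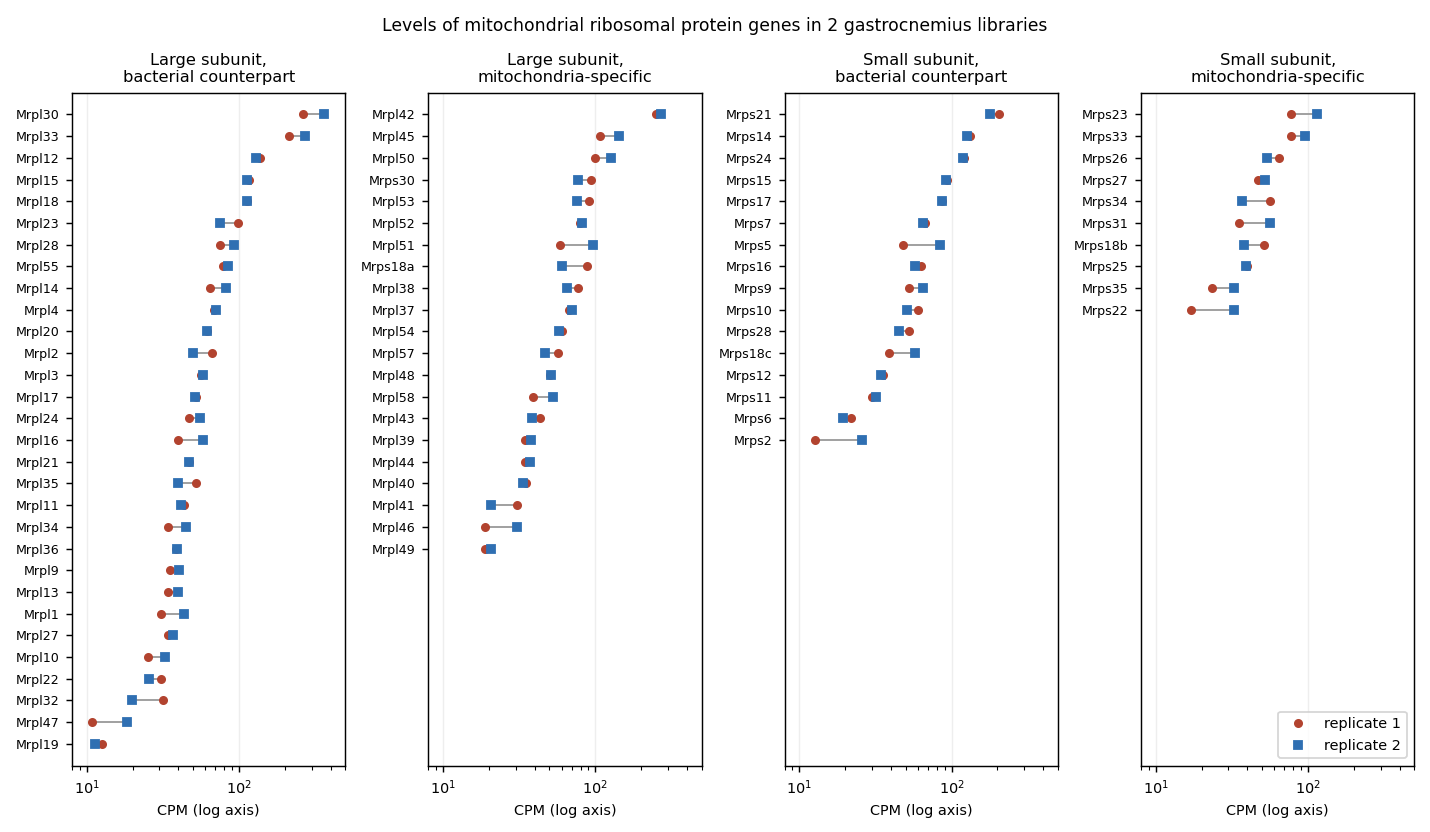
CPM of 77 mitoribosomal protein genes (log axis) in replicate 1 (circles) and replicate 2 (squares), joined by a line, in 4 panels by subunit and by whether the protein has a bacterial counterpart. Most genes lie between about 20 and 100 CPM in each panel, while Mrpl30, Mrpl42, Mrpl33 and Mrps21 stand at the top. Mrps36, which is not a ribosomal subunit, is left out.

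The large subunit joins amino acids into protein and holds the exit tunnel. Its 51 genes summed to 3449 CPM in replicate 1 and 3709 CPM in replicate 2, or 3579 ± 183 CPM. The 30 genes with a bacterial counterpart had medians of 49.7 and 50.6 CPM in replicates 1 and 2, and the 21 mitochondria-specific ones 58.7 and 57.7 CPM. The evolutionary origin of the protein therefore did not separate the levels of these genes by more than 10 CPM in their medians.

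Among those with a bacterial counterpart, Mrpl30 (uL30m) had the most reads, 291 in replicate 1 and 505 in replicate 2, or 263 and 360 CPM. Mrpl33 (bL33m), a very small protein, followed with 237 and 384 reads, or 214 and 274 CPM. Both of these leading values rest on unusual transcript models, described further on. Mrpl12, the protein of the flexible stalk that contacts translation factors, had 152 and 182 reads, or 137 and 130 CPM. Mrpl10, whose protein forms the base that carries the stalk, had 28 and 46 reads, or 25.3 and 32.8 CPM. Mrpl12 protein is present in several copies on each ribosome and Mrpl10 in 1 copy. The mRNA of Mrpl12 was the higher in both libraries, but a link between copy number and mRNA level was not tested. Mrpl15 had 129 and 159 reads and Mrpl18 125 and 159, and these 2 core genes hardly differed between the libraries, at 117 and 113 CPM for Mrpl15 and 113 and 113 CPM for Mrpl18. Mrpl19 (14 and 16 reads, 12.7 and 11.4 CPM) and Mrpl47 (12 and 26 reads, 10.8 and 18.5 CPM) were the 2 lowest of all 78 genes. The other 22 genes of this kind had means between 25.8 CPM (Mrpl32) and 87.0 CPM (Mrpl23).

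Among the mitochondria-specific proteins of the large subunit, Mrpl42 led with 278 reads in replicate 1 and 380 in replicate 2, or 251 and 271 CPM. Mrpl45, which lies at the exit of the tunnel and ties the ribosome to the inner membrane, had 119 and 202 reads, or 107 and 144 CPM. Mrpl50 had 111 and 179 reads, or 100 and 128 CPM. All 3 were above 100 CPM in both libraries. Mrpl58, which also acts as a peptidyl-tRNA hydrolase that frees stalled chains, had 38.8 and 52.7 CPM. Mrps30 carries a small-subunit name although its protein belongs to the large subunit, and it had 104 reads in replicate 1 and 108 in replicate 2. At the low end stood Mrpl49 with 21 and 29 reads and Mrpl46 with 21 and 43 reads. The other 13, leaving Mrps18a for later, had means between 25.7 CPM (Mrpl41) and 83.4 CPM (Mrpl53).

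The small subunit binds mRNA and decodes it. Its 26 genes summed to 1607 CPM in replicate 1 and 1689 CPM in replicate 2, or 1648 ± 58.4 CPM. The 16 genes with a bacterial counterpart had medians of 56.5 and 61.3 CPM, and the 10 mitochondria-specific ones 49.2 and 45.6 CPM. The median over the whole small subunit was 52.4 and 55.2 CPM and that over the large subunit 52.4 and 52.7 CPM, so a typical gene had about the same level in both subunits.

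Mrps21 (bS21m) was the highest small-subunit gene, with 227 reads in replicate 1 and 249 in replicate 2, or 205 and 177 CPM. Mrps14 had 146 and 178 reads, or 132 and 127 CPM, and Mrps24, the counterpart of bacterial S3, had 133 and 166 reads, or 120 and 118 CPM. The decoding-centre protein gene Mrps12 was far lower, with 39 and 48 reads, or 35.2 and 34.2 CPM. Mrps2 had 14 and 36 reads, or 12.7 and 25.7 CPM, and Mrps6 had 24 and 27 reads, or 21.7 and 19.2 CPM. These last 2 were the lowest of the small subunit. The other 9 genes with a bacterial counterpart, Mrps18c aside, lay between 30.9 CPM (Mrps11) and 92.5 CPM (Mrps15). Among the mitochondria-specific proteins, Mrps23 was the highest with 86 reads in replicate 1 and 161 in replicate 2, and Mrps33 followed with 86 and 134. Mrps31 had 39 and 79 reads and Mrps35 26 and 46, while Mrps22 was the lowest of them with 19 and 46. Mrps25, with 44 and 55 reads or 39.7 and 39.2 CPM, hardly differed between the libraries.

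Mammals have 3 proteins related to bacterial S18, which occupy different places in the ribosome. Mrps18a, which is built into the large subunit, had 97 reads in replicate 1 and 85 in replicate 2, or 87.6 and 60.6 CPM. Mrps18b, at a mitochondria-specific place in the small subunit, had 57 and 53 reads, or 51.5 and 37.8 CPM. Mrps18c, at the place of bacterial S18 itself, had 43 and 81 reads, or 38.8 and 57.7 CPM. Mrps18a was the highest of the 3 in both libraries, and the order of the other two differed between the libraries. Mrps36 is named as a small-subunit protein but is now known as a component of the oxoglutarate dehydrogenase complex of the citric acid cycle. It had 150 and 194 reads, or 135 and 138 CPM, on average more than all but 4 of the ribosomal genes.

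5 further mitoribosomal proteins carry other names, and their genes were looked at beside the 78. Gadd45gip1, Aurkaip1 and Chchd1 had means of 94.8, 76.7 and 76.2 CPM. Dap3, a GTP-binding protein of the small subunit, had 19 and 59 reads in replicates 1 and 2, and Ptcd3, an RNA-binding protein of the small subunit, 28 and 39. Ribosomal RNA of the same particle was scarcely sampled: mt-Rnr1 had 48 and 23 reads and mt-Rnr2 88 and 95. The 12 mRNAs encoded in mitochondrial DNA that had reads summed to 2892 and 3624 reads, or 2598 ± 20.4 CPM. This was below the summed level of the mitoribosomal protein mRNAs. They were unevenly sampled, from 1168 and 1350 reads for mt-Co1 to 0 and 1 for mt-Nd6. How fully the libraries captured mitochondrial RNA was not tested, so the 2 sums may not compare the amounts in the tissue.

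Factors that act on the ribosome were lower than its proteins. The 11 translation factors had medians of 16.3 and 24.9 CPM in replicates 1 and 2, the 17 aminoacyl-tRNA synthetases of mitochondria 13.5 and 18.5 CPM, and the 21 assembly factors with reads, of 22 listed, 14.5 and 17.1 CPM. The elongation factor genes Gfm1 and Tufm were the highest of the translation factors, with 89 and 134 reads for Gfm1 and 75 and 116 for Tufm. The initiation factor gene Mtif2 had 8 and 23 reads. Malsu1, which keeps the subunits apart during assembly, had 54 and 64 reads. Of the proteins that handle mitochondrial RNA, Slirp had 132 and 219 reads and its partner Lrpprc 79 and 184.

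The ratio between the libraries was taken as log2 of the CPM in replicate 1 over that in replicate 2, with 0.5 reads added to each count. The median over the 78 genes was -0.023, with 34 genes higher and 44 lower in replicate 1. Over all 8626 genes with at least 10 summed reads the median was -0.12, and 59.8 percent were lower in replicate 1. The share of mitoribosomal genes lower in replicate 1 was thus near that of genes at large. With factors from the median ratio of all genes in place of total reads every log2 ratio rises by 0.10, and the 2 medians become 0.079 and -0.022, so the sign of the mitoribosomal median depends on the scaling while its distance from the median of all genes does not.

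None of the 76 mitoribosomal genes with at least 50 summed reads was over 2-fold apart between the libraries. Among all 4294 genes with that many reads, 190 (4.42 percent) were over 2-fold apart, 167 of them (3.89 percent) lower in replicate 1. Of the 5 mitoribosomal proteins with other names, Dap3 was over 2-fold lower in replicate 1, with a log2 ratio of -1.27, and the median of the 5 was -0.13. The SD of the log2 ratio was 0.35 over the mitoribosomal genes, where counting alone would give 0.26, and 0.51 over all genes, where counting alone would give 0.28. The spread of the mitoribosomal genes thus lay closer to that of read sampling than the spread of genes at large did. This was not particular to them. The import machinery had an SD of 0.31, where counting alone would give 0.25, and 0 of 20 genes over 2-fold apart. Among the nuclear oxidative phosphorylation genes 0 of 84 were over 2-fold apart, and among the cytosolic ribosomal protein genes 1 of 75.

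**Figure D2:**
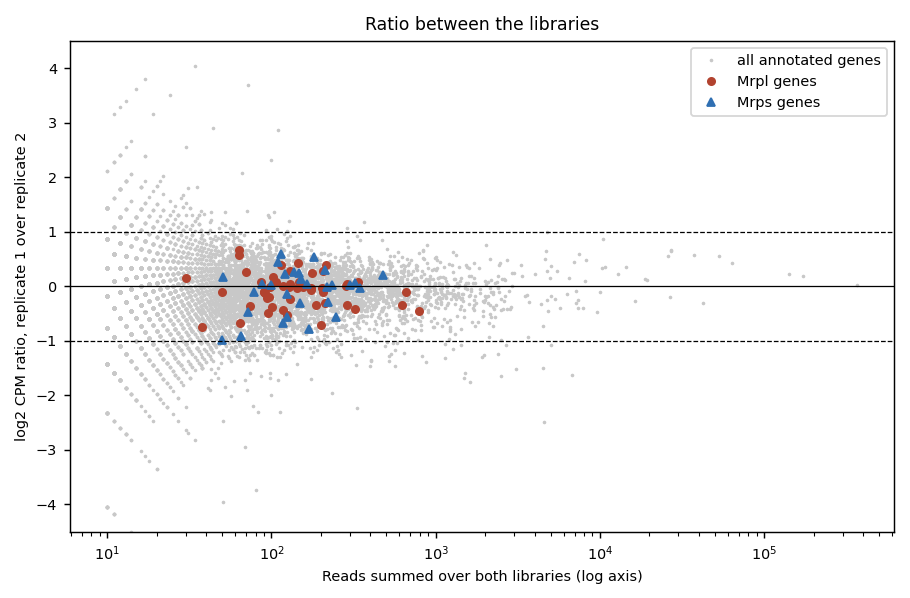
Log2 of the CPM ratio, replicate 1 over replicate 2, against summed reads (log axis) for 8626 annotated genes (grey), Mrpl genes (circles) and Mrps genes (triangles). The dashed lines mark 2-fold. All 78 mitoribosomal genes lie between the lines, and 13 other genes lie beyond the axis.

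The genes most apart included both sparsely and well sampled ones. Mrps2 (14 and 36 reads in replicates 1 and 2) had a log2 ratio of -0.99 and Mrps22, a mitochondria-specific small-subunit protein, had 19 and 46 reads and a log2 ratio of -0.91. Mrps5 had 53 and 117 reads and -0.79, Mrpl47 12 and 26 reads and -0.74, Mrpl51 65 and 136 reads and -0.72, and Mrpl46 21 and 43 reads and -0.68. On the other side, Mrpl32 (35 and 28 reads) had a log2 ratio of 0.66, Mrps34 (62 and 52 reads) 0.59, Mrpl41 (34 and 29 reads) 0.57, Mrps18a 0.53 and Mrps18b 0.45. The counting interval of the fold (95%, exact) was 0.44 to 0.82 for Mrpl51 and 1.03 to 2.23 for Mrps34, 2 genes picked here from the extremes of 78. The median log2 ratio was -0.038 over the large subunit and 0.021 over the small subunit.

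The same ratio was taken over the lists of partner genes. All 10 translation factors with at least 10 reads were lower in replicate 1, with a median log2 ratio of -0.67, and 14 of 16 tRNA synthetases were lower, with a median of -0.33. The assembly factors had a median of -0.097 with 12 of 20 lower, the import machinery -0.028 with 14 of 23 lower, and the mRNAs encoded in mitochondrial DNA 0.12 with 2 of 10 lower. The nuclear oxidative phosphorylation genes had a median of -0.15 and 70 of 86 were lower, while the cytosolic ribosomal protein genes had a median of 0.085 and 34 of 79 were lower. The share of genes lower in replicate 1 at large was the 59.8 percent given above. The lists differed in transcript length too, with median lengths of 2588 nt for the translation factors, 3336 nt for the tRNA synthetases, 1284 nt for the mitoribosomal genes, 732 nt for the oxidative phosphorylation genes and 795 nt for the cytosolic ribosomal proteins. Over all genes the median log2 ratio was 0.052 where the main transcript was under 1000 nt and -0.002 between 1000 and 2000 nt. The parts of length and of the difference in slow fibre RNA in these ratios were not tested.

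The long reads also show which transcript each gene used. Of the reads of the mitoribosomal genes, 85.0% in replicate 1 and 82.1% in replicate 2 were assigned to annotated transcripts, or 83.5% ± 2.08. Over all annotated genes the share was 66.2% and 65.5%. That share is weighted by reads, and Atp2a1 alone held 163251 and 203279 of them. The mitoribosomal transcripts were also shorter, as given below, and the parts of abundance and length in the difference were not tested. Without Mrpl33 and Mrpl30, 2 genes set aside after their values were seen, the mitoribosomal share was 90.9% and 90.4%. Incomplete splice matches, models that cover only part of an annotated transcript, took 2.78% and 3.62%. Of their 160 reads in replicate 1 and 281 in replicate 2, 93 and 118 were in spliced chains and the rest in single-exon models. Chains that join annotated splice sites in a way not annotated took 1.76% and 1.51%, and chains with an unannotated splice site took 6.30% and 6.89%. Over all annotated genes these 3 classes took 10.3% and 9.95%, 3.97% and 4.19%, and 17.2% and 17.4%, in the same order. The genomic class, reads that follow no splice junction, took 4.16% and 5.92%, against 2.32% and 3.01% over all annotated genes. Without Mrpl33 and Mrpl30 the mitoribosomal share of the genomic class was 1.76% and 1.63%. Almost all annotated reads, 98.5% and 98.4%, were of transcripts annotated as protein coding. Transcripts annotated as targets of nonsense-mediated decay took 0.25% and 0.27% of them, and those with a retained intron 0.82% and 0.80%.

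Most of these genes relied on a single transcript. In the 74 genes that reached 20 reads in both libraries, the leading transcript held a median of 89.9% of reads in replicate 1 and 92.0% in replicate 2, or 90.9% ± 1.51, leaving out reads of the genomic class, which overlap a gene without following its splice junctions. Over 4111 genes measured in the same way the median was 82.0% ± 0.26. The leading share was over 90% in 38 of the 74 (51.4%) and in 31.6% of all genes, and under 60% in 4 of the 74 and in 1027 of the 4111. The same transcript led in both libraries in 73 of 74 genes (98.6%, Wilson 95% interval 92.7 to 99.8), against 94.3% of all genes. Main transcripts had a median length of 1284 nt in the mitoribosomal genes and 2546 nt over all annotated genes with reads. The part of length in these shares was not tested.

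Mrpl33 was the exception to the use of annotated transcripts, and its sequence is shown here because nearly all of its reads follow an unannotated path. In replicate 1, 231 of 237 reads, and in replicate 2, 374 of 384, were assigned to 1 unannotated chain of 3 exons, and no read was assigned to the annotated coding transcript Mrpl33-201. In the annotated gene, on the plus strand of mm10, exon 1 is followed by a coding exon of 19 nt at chr5:31614603-31614621 and then by the exon at chr5:31616381-31616487. The deposited chain lacks the 19-nt exon and runs 8 bases past the annotated end of exon 1, to chr5:31614030, where the intron's next bases are GT. Both joins are printed from the end of exon 1 into the later exon, with the 19-nt exon and the 8 extra bases in capitals, from the GENCODE M21 transcripts on mm10.
Mrpl33 annotated: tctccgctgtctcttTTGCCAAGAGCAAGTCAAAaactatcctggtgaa
Mrpl33 deposited chain: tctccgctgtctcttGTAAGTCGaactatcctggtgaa

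The 19-nt exon was joined in 1 of 234 spanning reads in replicate 1 and in 3 of 381 in replicate 2. The deposited chain is 11 bases shorter between the same 2 exons, which is not a multiple of a codon. Read from the annotated start codon, the annotated transcript has 65 codons before a stop and the deposited chain 42. The 8 extra bases themselves begin with GT, directly after the annotated end of exon 1. Of these 8 bases, 6 are the same as in GCAAGTCA, the closest of all stretches of that length in the 19-nt exon. How often so close a match arises by chance was not tested. The deposited models are not the reads themselves, so whether the molecules carried the 19 bases was not tested. The exon was the shortest of 280 internal exons scored in 69 genes, and 6 of the 9 exons of 40 nt or less were included in over 95% of reads in both libraries. Those 6 were 31 to 38 nt long, in Mrpl48, Mrpl58, Mrps18a, Mrps35, Mrps5 and Mrps9.

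**Figure D3:**
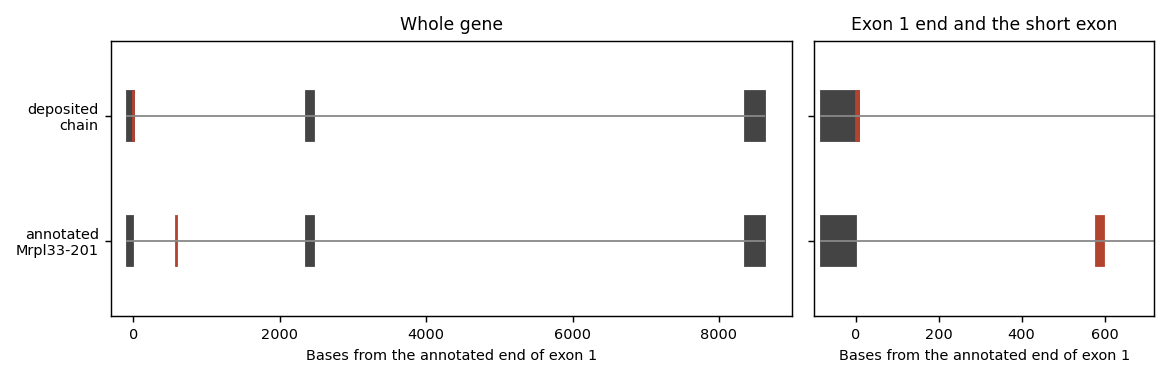
Exons of Mrpl33 (boxes) in the deposited chain (upper row) and in the annotated transcript (lower row), by bases from the annotated end of exon 1, for the whole gene (left) and around the short exon (right). The coloured parts differ: 8 bases added at the end of exon 1 in the deposited chain, and the 19-nt exon found only in the annotated transcript.

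Mrpl30 owed its place at the top to reads that follow no splice junction. A single-exon model of the genomic class, inside the gene's last exon, held 147 of 291 reads in replicate 1 and 348 of 505 in replicate 2. The ends of this model, chr1:37898165-37898338, are 174 nt apart. Without the genomic class Mrpl30 had 144 and 157 reads, 8th highest among the 78 genes in place of 1st. Mrpl24 also had a single-exon model of the genomic class, with 31 of its 52 reads in replicate 1 and 46 of 78 in replicate 2. That model is listed with a length of only 1 nt, at chr3:87923316, so its extent is not known. Mrpl24 overlaps Rrnad1 on the other strand, which had 6 and 12 reads. Leaving out genomic reads kept all of the 12 highest genes among the 12 highest.

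**Figure D4:**
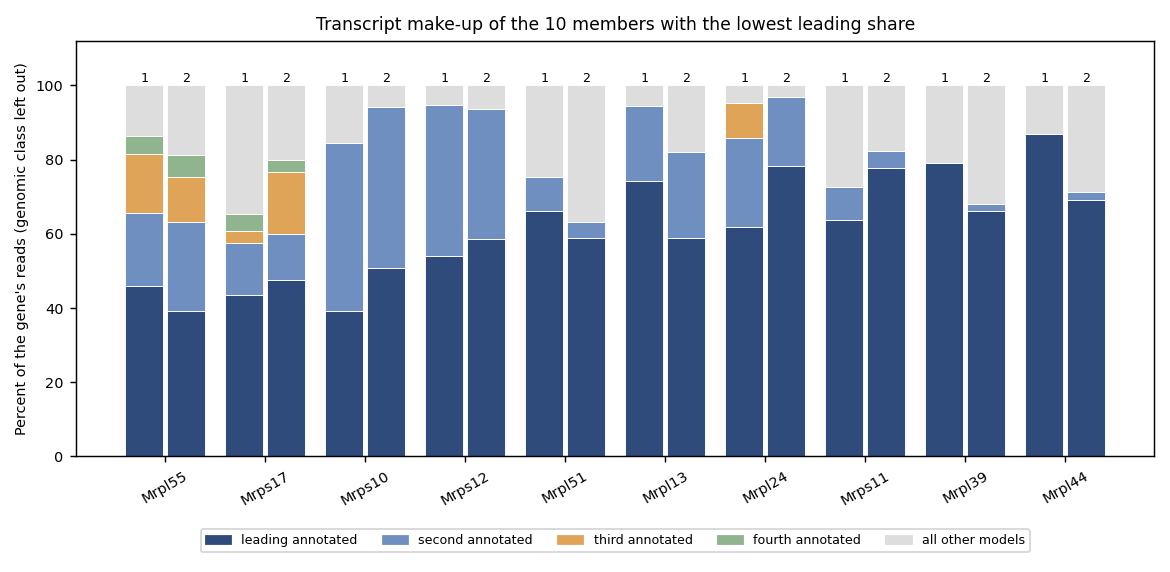
Percent of each gene's reads, genomic class left out, in its 4 leading annotated transcripts and in all other models, for the 10 genes with the lowest leading share. The left bar of each pair is replicate 1 and the right bar replicate 2, and Mrps10 is the gene whose 2 leading transcripts are nearly level.

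Mrps10, a small-subunit protein with a bacterial counterpart, was the single gene whose leading transcript differed between the libraries. Mrps10-203 had 29 of 64 reads in replicate 1 and 30 of 69 in replicate 2, and Mrps10-204 had 25 and 35. The coding parts of the 2 transcripts differ by 3 bases at the start of the third exon, CAG, which is 1 codon (201 against 200). The whole transcripts are 1018 and 1017 nt long, so they also differ outside the coding part. Their joins are printed with these bases in capitals, at chr17:47372573-47372575 on the plus strand.
Mrps10-203: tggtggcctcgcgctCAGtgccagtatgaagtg
Mrps10-204: tggtggcctcgcgcttgccagtatgaagtg

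Over all spliced models the upstream acceptor was used in 31 of 57 reads in replicate 1 and in 30 of 67 in replicate 2, or 54.4% (Wilson 95% interval 41.6 to 66.6) and 44.8% (33.5 to 56.6). The intervals overlap, and the use of both sites was close to equal at 49.6% ± 6.80. Mrpl55, the counterpart of bacterial L31, had a similar 3-base choice in its 5′ UTR, with the upstream site at 71.6% and 63.9%. It also had a choice of 21 bases in its coding part, which adds 7 codons (134 against 127). The upstream site was used in 20 reads in replicate 1, against 61 for the downstream site, and in 21 against 80 in replicate 2, or 22.7% ± 2.76. These joins are shown because they give 2 protein lengths, with the added bases in capitals (chr11:59204535-59204555, plus strand).
Mrpl55-205: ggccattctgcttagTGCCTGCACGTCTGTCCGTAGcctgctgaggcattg
Mrpl55-201: ggccattctgcttagcctgctgaggcattg

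Combining these choices, Mrpl55 had the lowest leading share on average over the libraries, with Mrpl55-201 at 46.0% in replicate 1 and 39.3% in replicate 2, Mrpl55-203 at 19.5% and 23.9%, and Mrpl55-205 with 14 reads in each library. Mrps17 was next on average and lowest in replicate 1, with Mrps17-201 at 43.5% and 47.5% and Mrps17-205 at 14.1% and 12.5%. Mrps17-203 had 3 reads (3.26%) in replicate 1 and 20 (16.7%) in replicate 2, where it was the second transcript. In both genes the annotated forms differ mostly ahead of the start codon, and all but 3 of the Mrps17 coding transcripts have 120 codons. Mrps12 used Mrps12-201 for 20 of 37 reads and 27 of 46, and Mrps12-204, which keeps the intron of the 5′ UTR, for 15 and 16. Both encode 139 codons. Mrpl51 had 43 of 65 and 80 of 136 reads in Mrpl51-201, and its second most used model was a single-exon incomplete splice match with 15 and 46 reads.

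Of the 280 internal exons scored, 234 were included in over 90% of spanning reads on average and 191 in every spanning read of both libraries. Another 39 were included in under 10% on average, and exons of genes outside the group were not scored. The remaining 7, in 4 genes, lay between 10 and 90%, with a median inclusion of 78.3% ± 2.44, and 4 of them were forms of 2 Mrpl55 exons. Among these the coding exon of 94 nt in Mrpl13 is shown, since its loss breaks the reading frame and the annotation marks the shortened transcript, Mrpl13-202, as a target of nonsense-mediated decay. It was included in 26 of 34 reads in replicate 1 (76.5%) and in 34 of 48 in replicate 2 (70.8%), or 73.7% ± 3.99. The exon lies at chr15:55548142-55548235 on the minus strand and is printed in capitals between the ends of its neighbours.
Mrpl13 exon: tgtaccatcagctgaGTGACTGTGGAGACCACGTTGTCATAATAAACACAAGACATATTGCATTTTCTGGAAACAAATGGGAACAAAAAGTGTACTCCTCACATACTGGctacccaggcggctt

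Mrpl13-202 itself had 7 reads in replicate 1 and 13 in replicate 2, beside 26 and 33 of the full Mrpl13-205, out of 12 and 17 reads of decay-annotated transcripts in the whole gene group. The other intermediate exons were an 81-nt exon of the 5′ UTR in Mrpl30, included in 88.9% and 89.9% of reads, an 80-nt exon of Mrps17 at 78.4% and 81.4%, and the 4 alternative forms of the 2 internal exons of Mrpl55, at means of 70.0 to 88.8%. For the Mrpl55 exons, reads that used the other acceptor were not counted as spanning.

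Apart from Mrpl33, few reads were in unannotated chains. Without Mrpl33 and Mrpl30, chains with an unannotated splice site took 2.43% and 2.25% of the mitoribosomal reads. Chains with an unannotated splice site numbered 174, of which 33 occurred in both libraries, and these 33 held 290 of 362 such reads in replicate 1 and 434 of 535 in replicate 2, mostly those of Mrpl33. Only 4 other unannotated or incomplete chains had at least 5 reads in each library. Mrps17 had a chain that skips its second exon with 11 and 13 reads. Mrps27, an RNA-binding protein of the small subunit, had a chain with an added exon at chr13:99401270-99401392 with 5 and 6 reads. Mrps22 had a shortened chain of 5 exons with 10 and 21 reads beside 7 and 25 of Mrps22-201, and Mrpl42 one with 6 and 9. Processed pseudogenes can take reads of their parents: Mrpl23-ps1, which the rule leaves out, had 78 and 52 reads beside 109 and 106 of Mrpl23, so the level of Mrpl23 is uncertain.

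The promoters of the genes were examined for the letters of known motifs, on either strand, in the RefSeq windows of GRCm38.p6 from 250 bases before to 50 after the start. Windows were found for 69 of the 78 genes. The ETS core CCGGAAG, bound by the GABP factor among others, stood in 26 of 69 (37.7%, Wilson 95% interval 27.2 to 49.5), against 9.93% of 27025 genes with a window and 22.5% of the 6709 with at least 10 reads here. The YY1 letters ATGGCGGC stood in 12 (17.4%, 10.2 to 28.0), against 2.60% and 6.98%, and the NRF1 core GCATGCGC in 8 (11.6%, 5.99 to 21.2), against 3.05% and 6.77%. At least 1 of these 3 stood in 36 of the 69 (52.2%), against 14.2% of all genes with a window and 32.4% of the detected ones. At least 2 stood in 9 of the 69, against 1.31% and 3.68%.

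**Figure D5:**
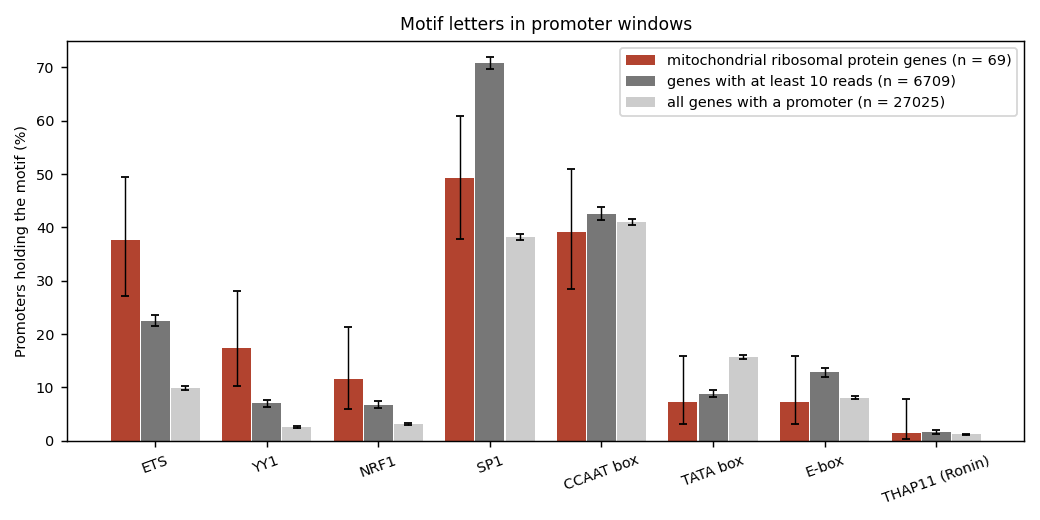
Percent of promoter windows holding the letters of 8 motifs, for mitoribosomal protein genes, genes with at least 10 reads and all genes with a window, with Wilson 95% intervals as bars. ETS and YY1 stand higher in the mitoribosomal genes than in either comparison group, and SP1 stands lower than in detected genes.

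Other common promoter letters were also counted. GGGCGG (SP1) stood in 49.3% (37.8 to 60.8), against 70.9% of detected genes and 38.2% of all genes, and CCAAT in 39.1%, against 42.6% and 41.1%. TATAAA stood in 7.25%, against 8.76% and 15.7%, and the E-box CACGTG in 7.25%, against 12.8% and 8.09%. ACAATTCC, a core of the THAP11 (Ronin) motif, stood in 1 promoter, that of Mrps30. Genes with and without an ETS, YY1 or NRF1 match had similar levels, with medians of 51.4 CPM over 36 genes and 58.4 CPM over 33.

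Examples are printed with the motif in capitals, in the gene's own direction. Mrpl33 is shown as the highest of the genes with an ETS match, and it also has NRF1 letters just upstream. Mrpl53 has 2 ETS matches, and Mrpl32 has the most NRF1 matches, 4, which begin 87, 85, 66 and 22 bases before the start. The first 2 overlap, because the letters GCGCATGCGC hold the motif on both strands. Mrpl50 and Mrps30 are the 2 highest genes with YY1 letters.
Mrpl33 ETS (chr5:31613937-31613965): ccgcgcatgccCCGGAAGtagtcgttgag
Mrpl33 NRF1 (chr5:31613913-31613950): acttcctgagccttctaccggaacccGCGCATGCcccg
Mrpl53 ETS (chr6:83109023-83109081): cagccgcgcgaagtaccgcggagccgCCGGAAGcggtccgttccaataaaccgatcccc
Mrpl32 NRF1 (chr13:14613091-14613150): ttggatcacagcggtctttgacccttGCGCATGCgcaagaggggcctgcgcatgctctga
Mrpl50 YY1 (chr4:49521035-49521064): gcttgtcgagaATGGCGGCgctgatcgtgt
Mrps30 YY1 (chr13:118387216-118387245): ggcgggcgaaaATGGCGGCggccaggtatt

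The motifs differed in where they stood. The 31 ETS matches had a median first base 17 bases before the start, and 19 of them began within the 100 bases before it. Of the 12 YY1 matches, 11 lay after the start and 11 on the gene's own strand. In 10 of the 12 genes the ATG of the match was the annotated start codon, so that the same letters open the protein with methionine and alanine, as in Mrpl50 and Mrps30 above. Among all 704 genes with these letters in the window, 184 (26.1%) had the match on a start codon. A letter match is a description of the window and does not show binding in muscle.

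Many of the genes share a promoter region with a neighbour. A protein-coding gene on the opposite strand started within 1000 bases upstream for 18 of the 78 (23.1%, Wilson 95% interval 15.1 to 33.6), against 11.3% of 8230 coding genes with at least 10 reads and 6.72% of all coding genes. The distance between the starts had a median of 82 bases and was 26 bases at the least, between Mrpl54 and Apba3. The mitoribosomal gene was the higher of the pair in 14 of 18, and 2 neighbours had 0 reads in both libraries. The same share was not taken over other pairs of coding genes. Coding genes with reads had medians of 8.13 and 9.27 CPM in replicates 1 and 2, against 52.4 and 54.9 CPM for the mitoribosomal genes. Mrpl30 stood at 311 CPM, or 124 CPM without reads of the genomic class, 66 bases from Mitd1 at 0.81 CPM. Mrpl50 stood at 114 CPM 83 bases from Zfp189 at 3.85 CPM. The exceptions were Mrpl49 beside the ribosomal protein gene Fau (19.8 and 86.2 CPM), Mrpl32 beside the proteasome gene Psma2 (25.8 and 104 CPM), Mrpl54 beside Apba3 (59.1 and 92.1 CPM) and Mrpl41 beside Pnpla7 (25.7 and 69.7 CPM). Levels on the 2 sides of a shared region thus differed widely in either direction.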

How the data were processed

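Per the file headers, the authors assigned long reads to transcript models with TALON, and they deposited whole-number read counts per model and library, without normalisation. Per the submitters' processing notes the build was mm10 and the annotation GENCODE M21. For the aligner, the versions and any filters, the entry is: not given in the sources used here. Aligning long reads can lose very short exons, and truncated molecules become incomplete splice matches. Counts were summed per gene and scaled to CPM by the reads of annotated genes, leaving out spike-ins. With 1 group of 2 libraries no test was made, and values are mean ± SD (n = 2). Because single molecules were not tagged, the intervals and the floor reflect counting error alone. The genes, lists and rules were chosen with earlier results of these data known. Named genes were the 12 highest, the 6 lowest, the most apart between libraries, those with several transcripts, cassette exons or repeated unannotated chains, the S18 relatives, Mrps36 and up to 4 genes of each list. Ratios needed at least 10 summed reads, 2-fold calls 50, and transcript shares 20 in each library. The ratio was tested on simulated data. Analyses used Python 3.11.15 with pandas 2.3.3, scipy 1.17.1 and biopython 1.88, and edgeR 4.0.16 in R 4.3.3 for TMM factors. Alternatives were other scalings, read classes, minimum counts, thinning of the deeper library and leaving out each library.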

Additional observations from a re-analysis of the deposited data

How the results depend on the processing

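With annotated transcripts only, the summed level became 6804 CPM over all genes, 4334 CPM over the large and 2277 CPM over the small subunit, the median level 71.2 CPM, and the median cassette inclusion 82.2% over 2 exons. This scaling also drops the unannotated reads of other genes. TMM and median-ratio factors moved the median log2 ratio to 0.063 and 0.079. Without Mrpl33 and Mrpl30, an alternative added after seeing the data, the summed levels were 4809 CPM and, in the large subunit, 3024 CPM, and the annotated share was 90.6%. The annotated share was 88.0% with genomic reads out of the total. The leading transcript held 88.7% with genomic reads included and 93.6% without incomplete splice matches. With a minimum of 10 reads 76 of 78 genes, and with a minimum of 50 reads 46 of 47, had the same leading transcript in both libraries. With 10 spanning reads the median cassette inclusion was 71.6% over 11 exons. Leaving out either library gave 5192 to 5536 CPM for the summed level, 3449 to 3709 CPM for the large and 1607 to 1689 CPM for the small subunit, 52.4 to 54.9 CPM for the median level, 82.1 to 85.0% for the annotated share, 89.9 to 92.0% for the leading share and 76.5 to 80.0% for cassette inclusion. The count over 2-fold was 0 under all 8 alternatives run for it. No paired analysis was possible because there is 1 group. Few reads per gene, and 2 libraries of 1 group, limit every single-gene value.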
